A study of Homo sapiens with 6 samples.

Results

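Melanin synthesis was described by 7 genes, the enzyme genes TYR, TYRP1 and DCT, the transporter genes OCA2, SLC45A2 and SLC24A5, and the receptor gene GPR143, out of 20015 protein-coding genes in the GENCODE 44 annotation. They are named for their known function, and the rule that lists them uses no measured value. The H3K27ac peaks assigned to them were those that overlapped a gene body or lay within 100 kb of it, which gave 47 of the 30784 peaks in the list. OCA2 held 38 of these peaks, TYRP1 and DCT held 3 each, SLC45A2, SLC24A5 and GPR143 held 1 each, and TYR held 0.

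Chromatin immunoprecipitation followed by sequencing (ChIP-seq) had been performed on SU-CCS-1, a cell line of human clear cell sarcoma (CCS) whose labelled genotype is EWSR1::ATF1, the fusion that characterizes this tumor. There were 3 H3K27ac samples and 3 input samples, input being sheared chromatin sequenced without antibody. All 6 samples came from this 1 line, and the labels give no treatment, so the data describe a single state of these cells with no comparison between conditions. The values available were the start and end of each peak in 1 merged list. It carries no peak height, no read count and no value per replicate, so no error between replicates can be given and no test was made. The list itself gives no read depth. A gene without a peak was either below the calling threshold or in a region removed after calling, which does not show that the mark was absent.

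H3K27ac, acetylation of lysine in the tail of histone H3, is found at active promoters and enhancers. Melanin is made in melanosomes, the pigment organelles of melanocytes, where tyrosinase (TYR) oxidizes tyrosine, TYRP1 and dopachrome tautomerase (DCT) act on later intermediates, and transporters set the ions and pH of the organelle. MITF, the master transcription factor of melanocytes, binds the E-box CATGTG and its longer form, the M-box TCATGTG, in promoters of pigment genes, and CCS is known for melanocytic differentiation. The label was checked by peaks within 3 kb of a transcript start, the definition of a promoter peak used throughout. Among the melanocytic and CCS markers, SOX10 had 3 such peaks, MITF 2, PMEL 6, MLANA 1 and S100B 1. The canonical start itself was in a peak for SOX10 and MITF and not for PMEL, MLANA or S100B, and the nearest peak to that of MLANA was 4.51 kb away. The markers of other cell types, KRT5, KRT14, MYOD1, MYOG, PTPRC and PECAM1, had 0 each. Over all protein-coding genes, 63.4% had a promoter peak and 53.5% had the canonical start in a peak. A peak at a marker is therefore a weak check of the label.

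The promoter sequences of 6 members are shown because the M-box and the H3K27ac peaks fell on them differently. Each is a RefSeq window of 300 bases on build GRCh38.p14, with 250 bases before the start site and 50 after it, written 5′ to 3′ on the gene's own strand. Capitals mark CATGTG or its reverse complement CACATG, and a T before the former or an A after the latter completes the M-box. SLC45A2 had no entry in the RefSeq table. The windows of TYR (chr11:89177625-89177924, plus strand), TYRP1 (chr9:12693135-12693434, plus) and SLC24A5 (chr15:48120740-48121039, plus) overlapped no peak, nor did that of GPR143 (chrX:9765798-9766097, minus). Those of DCT (chr13:94479633-94479932, minus) and OCA2 (chr15:28099266-28099565, minus) did overlap a peak.
TYR: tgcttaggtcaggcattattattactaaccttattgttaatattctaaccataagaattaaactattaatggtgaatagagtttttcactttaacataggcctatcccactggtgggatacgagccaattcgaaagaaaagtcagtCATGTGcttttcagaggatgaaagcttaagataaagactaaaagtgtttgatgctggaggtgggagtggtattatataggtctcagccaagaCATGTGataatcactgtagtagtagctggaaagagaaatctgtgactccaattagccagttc
TYRP1: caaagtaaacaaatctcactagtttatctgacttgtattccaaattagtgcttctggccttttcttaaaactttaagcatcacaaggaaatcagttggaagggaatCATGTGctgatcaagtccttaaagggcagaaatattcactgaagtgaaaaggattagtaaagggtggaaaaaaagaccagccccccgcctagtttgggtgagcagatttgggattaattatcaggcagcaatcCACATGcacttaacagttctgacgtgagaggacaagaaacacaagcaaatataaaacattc
DCT: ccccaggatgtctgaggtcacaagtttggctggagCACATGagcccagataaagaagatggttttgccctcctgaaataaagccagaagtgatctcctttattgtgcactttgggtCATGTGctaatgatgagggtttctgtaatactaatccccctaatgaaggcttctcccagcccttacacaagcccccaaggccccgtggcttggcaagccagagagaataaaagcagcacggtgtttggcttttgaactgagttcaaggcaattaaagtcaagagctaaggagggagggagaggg
OCA2: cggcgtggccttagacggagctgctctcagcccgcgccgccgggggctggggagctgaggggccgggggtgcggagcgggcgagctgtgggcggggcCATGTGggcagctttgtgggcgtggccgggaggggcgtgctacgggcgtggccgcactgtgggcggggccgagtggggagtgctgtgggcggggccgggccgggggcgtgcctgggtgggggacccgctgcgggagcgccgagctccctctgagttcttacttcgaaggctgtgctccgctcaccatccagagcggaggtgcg
SLC24A5: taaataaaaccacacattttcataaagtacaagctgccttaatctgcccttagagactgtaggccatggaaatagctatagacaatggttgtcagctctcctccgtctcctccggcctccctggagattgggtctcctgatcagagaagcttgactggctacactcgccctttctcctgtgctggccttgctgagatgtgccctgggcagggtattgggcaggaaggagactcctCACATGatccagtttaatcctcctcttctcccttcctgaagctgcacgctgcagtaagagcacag
GPR143: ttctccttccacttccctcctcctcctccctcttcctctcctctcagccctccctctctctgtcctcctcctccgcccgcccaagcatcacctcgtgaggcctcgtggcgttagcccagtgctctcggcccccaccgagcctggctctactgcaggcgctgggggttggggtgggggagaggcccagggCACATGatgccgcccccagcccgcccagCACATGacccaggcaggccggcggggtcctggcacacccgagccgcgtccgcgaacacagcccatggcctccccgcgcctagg

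The M-box TCATGTG, searched on both strands, occurred in 5 of the 7 RefSeq windows of the members, since DCT has a second window far upstream. It was present in 2.92% of all 35116 RefSeq promoter windows of the same length. Because the M-box is known from promoters of pigment genes, this comparison describes the sequence and is not a result of the H3K27ac data. It began 105 bases upstream of the start in TYR, 145 in TYRP1 and 15 in SLC24A5. DCT had 1 at 215 and 1 at 135 bases upstream, and GPR143 had 1 at 61 and 1 at 33. OCA2 lacked the M-box but had the shorter CATGTG 153 bases upstream. CATGTG, which is contained in the M-box, was found in 6 of the 7 member windows and in 11.1% of all windows. Of the 5 member windows with the M-box, 1 overlapped a peak, that of DCT. This was near the share of all windows with the M-box that did so, 18.7%, beside 42.1% of all windows. A match is a description of the letters and not evidence of binding.

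The ATF/CREB motif TGACGTCA, the type of site recognized by the ATF1 part of the fusion, was in 0 of the 7 member windows and in 1.85% of all windows. Its flexible form TGANNTCA, which includes TGACGTCA, was in both DCT windows, in no other member window and in 11.5% of all windows. The AP1 motif TGAGTCA (4.95% of all windows) and the E-box CACGTG (7.26%) were in 0 member windows. SOX-type motifs were found once each, with ACAAAG in OCA2 (16.1% of all windows) and ACAATG in SLC24A5 (10.8%). Base composition also varied among the members. The GC content was 37.0% for TYR, 39.0% for TYRP1, 49.0% for DCT, 51.0% for SLC24A5, 70.3% for GPR143 and 75.7% for OCA2, around a median of 58.7% over all windows (quartiles 47.0% and 68.0%). The second DCT window lay between those of SLC24A5 and GPR143. CpG dinucleotides numbered 2 in the windows of TYR, TYRP1 and the first of DCT, 4 in SLC24A5, 19 in GPR143, 26 in the second DCT window and 32 in OCA2, beside a median of 14.

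Promoter peaks were present at 3 of the 7 genes, DCT, OCA2 and GPR143, beside 63.4% of all protein-coding genes. Among the widest 25% of peaks the count was 2, DCT and OCA2, beside 26.9%. With the canonical start itself inside a peak, the count was 2, DCT and OCA2, beside 53.5%. A peak touched the body of 3 members, the same 3, beside 64.7% of all genes. Only OCA2 had a body peak more than 3 kb from all of its own starts, beside 17.9%. A peak lay on or within 100 kb of 6 members, all but TYR, beside 89.0%. The median number of peaks in the window was 1 for the members and 4 for all protein-coding genes (quartiles 2 and 9). These counts are of 7 genes and are given without a test.

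**Figure D1:**
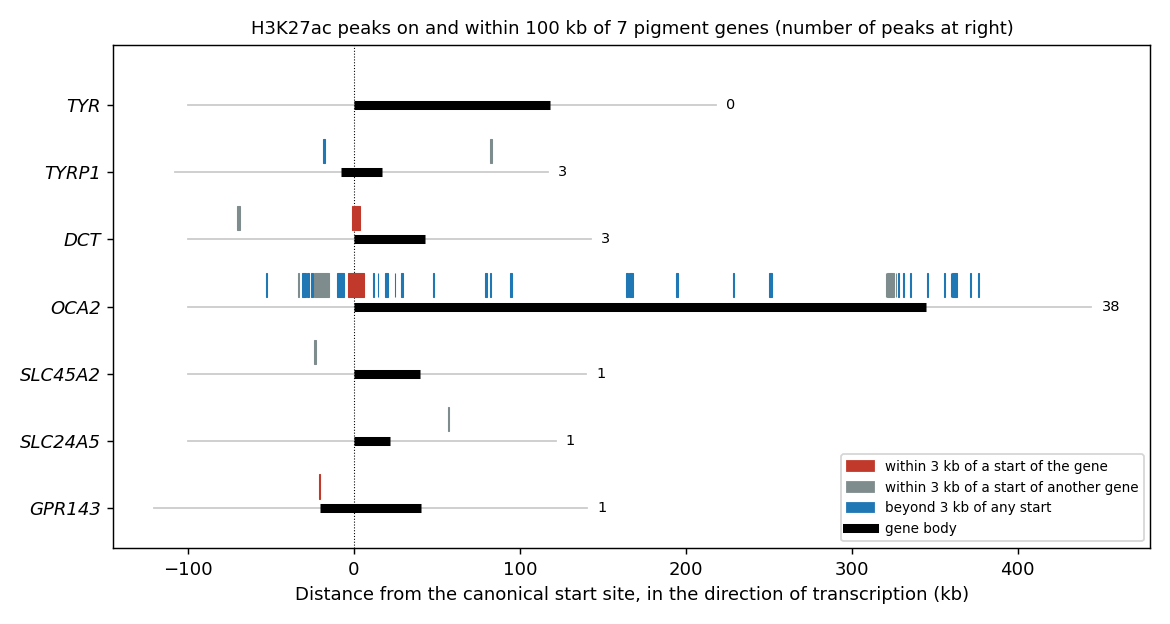
H3K27ac peaks (coloured blocks above each line) on the 7 genes, drawn by distance in kb from the canonical start site in the direction of transcription, with the gene body in black, the 100 kb flanks in grey and the number of peaks at the right. Peaks at OCA2 were spread over the body and both flanks, TYR had 0 peaks, and the single peak of GPR143 sat at an outer start upstream of its canonical start.

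TYR (ENSG00000077498.9, chr11:89177875-89295759, plus strand, 118 kb) encodes tyrosinase, the rate-limiting enzyme of the pathway. None of its 3 annotated start sites had a peak within 3 kb, and the nearest peak was 839.6 kb from the canonical start. A nearer peak was found for 99.0% of protein-coding genes, and TYR was number 193 in order of distance, farthest first. The gene lay in a stretch of 1884 kb without peaks, from the end of 1 peak at base 88338230 to the start of the next at base 90222321, which was number 165 in length among 30760 gaps between neighbouring peaks. The stretch wholly contained 12 protein-coding genes, including the neighbour NOX4 28.6 kb away, the glutamate receptor gene GRM5 112 kb away and several TRIM genes. Lack of a body peak was not rare among long genes, since 813 of the 3666 genes of at least 100 kb (22.2%) had none.

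TYRP1 (ENSG00000107165.13, chr9:12685439-12710285, plus strand, 24.8 kb) encodes tyrosinase-related protein 1, an enzyme of eumelanin synthesis. It had 0 peaks on its body and 0 within 3 kb of any of its 7 start sites. A close pair of narrow peaks lay upstream, 740 bases wide at chr9:12674451-12675190 and 430 bases wide at chr9:12675421-12675850. Their midpoints were 18.6 and 17.8 kb from the canonical start, and the second ended 9.59 kb from the outermost annotated start. Both were beyond 3 kb of any start site, and the second was wider than only 4.68% of all peaks. The third peak, 1180 bases wide, lay 82.6 kb downstream in exon 1 of LURAP1L.

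The 230 bases between the paired TYRP1 peaks are shown because this was the only distal pair near an enzyme gene. The stretch is chr9:12675191-12675420 on hg38, plus strand. Capitals mark matches to TGANNTCA and to the SOX-type motifs ACAAAG, here as its reverse complement, and ACAATG. The stretch held no CATGTG, no CACGTG and no M-box. Other forms of the E-box were not searched.
TYRP1 upstream gap: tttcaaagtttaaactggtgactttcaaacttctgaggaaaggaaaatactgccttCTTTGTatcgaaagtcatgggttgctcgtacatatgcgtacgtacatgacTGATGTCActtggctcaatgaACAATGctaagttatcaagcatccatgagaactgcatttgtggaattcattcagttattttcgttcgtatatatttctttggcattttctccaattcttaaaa

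DCT (ENSG00000080166.16, chr13:94436811-94479682, minus strand, 42.9 kb) encodes dopachrome tautomerase, which converts dopachrome to its carboxylated indole product. It was the only enzyme gene with a peak at its start. That peak, chr13:94475921-94479810, was 3890 bases wide, wider than 95.9% of all peaks, and reached from the start into intron 1. A second peak of 1080 bases, chr13:94480071-94481150, lay just upstream with its midpoint 0.928 kb from the start. Joined as neighbours, at the joining distance that the study used for enhancers, the pair held 4.97 kb of peak and was number 1850 of 17049 joined regions by summed peak width. Peaks covered 8.77% of the DCT body, beside a median of 1.45% over all protein-coding genes, and 2.26% when the 3 kb at its start sites were left out. The third peak, 1890 bases wide, was 69.6 kb upstream at the start of the long noncoding RNA ENSG00000289878, and overlapped the second RefSeq promoter window of DCT (chr13:94549357-94549656, minus strand).

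The 260 bases between the DCT pair, chr13:94479811-94480070, held both M-boxes of the DCT promoter shown above. Both thus fell between the called peaks, but the one nearer the start lay directly beside the edge of the start peak. Peak edges lie on a grid of 10 bases, so they cannot place that M-box between the peaks rather than under one. Among the 4261 gaps of similar length between neighbouring peaks, those of 150 to 520 bases, 7.30% held at least 1 M-box.

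**Figure D2:**
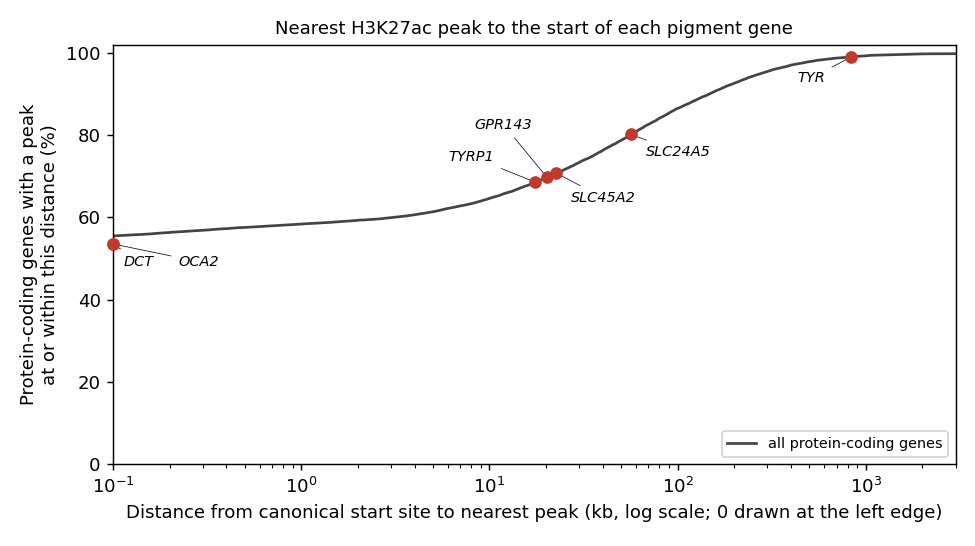
Distance from the canonical start site to the nearest peak (kb, log scale) against the percentage of the 20015 protein-coding genes with a peak at or within that distance, with the 7 genes as red points. DCT and OCA2 sit at distance 0, TYRP1, GPR143 and SLC45A2 between 17.5 and 22.7 kb, SLC24A5 at 56.7 kb, and TYR at 839.6 kb.

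OCA2 (ENSG00000104044.16, chr15:27754875-28099315, minus strand, 344 kb) encodes a melanosomal membrane protein that supports chloride conductance and raises the pH of the organelle. All 4 of its annotated start sites lay in 1 peak, chr15:28093031-28103080, which was 10050 bases wide and wider than 99.7% of all peaks. The 38 peaks in its window outnumbered those of 99.9% of protein-coding genes. Of these, 22 lay on the OCA2 body, 9 in the neighbouring gene HERC2 and 7 between genes. Sorted by start sites, 1 peak was at the start of OCA2, 8 were within 3 kb of a start of another gene and 29 (76.3%) were distal. The widths ranged from 400 to 10050 bases with a median of 875, and 16 peaks were wider than 1 kb.

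OCA2 is a long gene, and a long window collects more peaks. Against the 3666 protein-coding genes of at least 100 kb, its 22 body peaks compared with a median of 1 (quartiles 1 and 3), and 99.2% of them had fewer. Peaks covered 8.22% of the OCA2 body, or 28.3 kb, beside a median of 0.718% in long genes, and 95.9% of those had a lower share. Scaled to length, the median of long genes was 0.788 body peaks per 100 kb, and 96.5% had fewer per 100 kb than OCA2.

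Along OCA2 the peaks lay at both ends more often than in the middle. Divided from the start into 3 equal lengths, the body held 9, 4 and 8 peaks besides the start peak, while the upstream flank held 10 and the downstream flank 6. The midpoint of every body peak was in an intron of the canonical transcript, which has 24 exons, with 6 in intron 23 and 4 in intron 2. In the middle of the gene, the widest was a peak of 2350 bases in intron 18, chr15:27931321-27933670, 167 kb from the start. Intron 23 held a peak of 3990 bases, chr15:27773971-27777960, at the start of the long noncoding RNA ENSG00000232394, which runs on the opposite strand. Beyond the 3′ end of OCA2, the widest peak measured 2910 bases and lay 362 kb from the start.

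**Figure D3:**
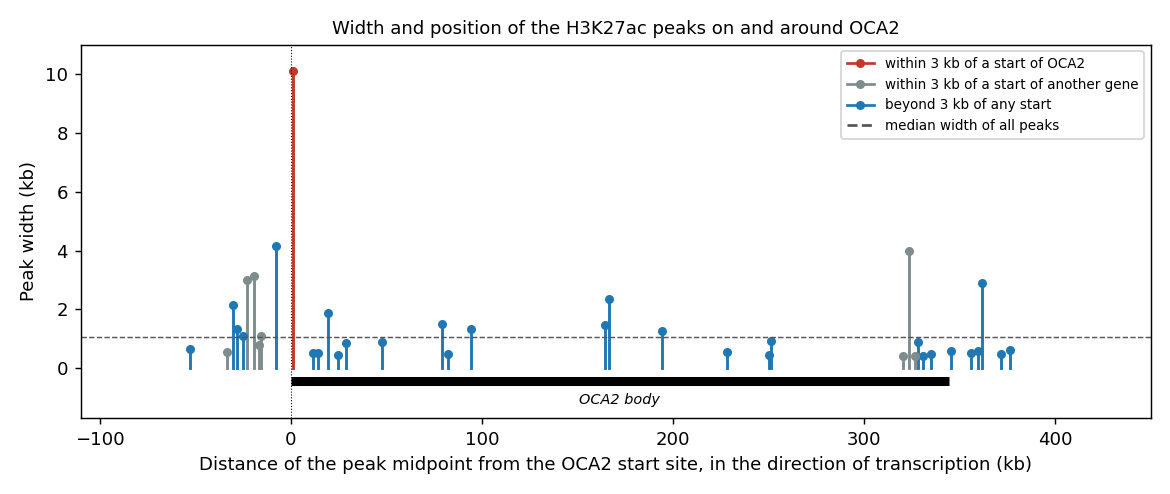
Width in kb of each of the 38 peaks in the OCA2 window against the distance in kb of its midpoint from the OCA2 start site, with the gene body as a black bar and the median width of all peaks as a dashed line. The start peak of 10.1 kb is the widest, followed by the peaks of 4.15 kb upstream and 3.99 kb near the 3′ end.

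Upstream of OCA2, a peak of 4150 bases, chr15:28105201-28109350, occupied the space between OCA2 and HERC2. HERC2, which encodes a large ubiquitin ligase, begins its nearest end 11.7 kb from OCA2 and is transcribed in the same direction. Its 3′ introns are known to hold an enhancer of OCA2 in melanocytes. The 9 peaks in HERC2 summed to 13.8 kb, and the widest measured 3120 bases (chr15:28117041-28120160, intron 86) and 3000 bases (chr15:28120561-28123560, intron 85). Of these 9, 5 counted as start-site peaks through HERC2 transcripts annotated inside the gene, although they lay in its last introns and exons, from intron 79 to exon 90 of 93. Peaks joined at the same distance formed a region of 15 peaks from chr15:28069951 to 28133140, which ran from OCA2 intron 2 over its start into HERC2. Its 31.6 kb of summed peak width, 49.9% of its 63.2 kb span, made it number 43 of 17049 joined regions. A second region of 12 peaks over the 3′ end of OCA2 (chr15:27722511-27778830) held 12.3 kb of peak in 56.3 kb and was number 399. This order uses peak width alone and is not an order of signal.

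The gap between these HERC2 peaks, chr15:28120161-28120560, held 2 M-boxes, 1 ATF/CREB motif TGACGTCA and 4 ACAAAG within 400 bases. Among the short gaps of the OCA2 window, this gap was chosen for having the most motif matches, so the matches are not independent support. Shown are 196 of these bases, chr15:28120221-28120416 on hg38, read on the minus strand as OCA2 is transcribed, because they hold both M-boxes and the ATF/CREB motif. Capitals mark the M-box (TCATGTG, or CACATGA as its reverse complement), ACAAAG as its reverse complement CTTTGT, and TGACGTCA.
OCA2 upstream gap: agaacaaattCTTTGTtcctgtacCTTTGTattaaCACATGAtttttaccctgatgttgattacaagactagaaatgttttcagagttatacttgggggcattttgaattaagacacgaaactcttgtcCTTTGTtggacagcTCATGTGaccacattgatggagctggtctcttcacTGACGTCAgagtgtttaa

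Counted from the first base shown, the M-boxes lay at bases 36 to 42 and 144 to 150, and TGACGTCA at bases 179 to 186. A gap with at least 2 M-boxes was seen in 22 of the 4261 gaps of similar length (0.516%) and in 2 of the 11 such gaps between member peaks, at DCT and here. This count of 2 or more was chosen after the values were seen. Most of the 11 gaps between member peaks were in the OCA2 window. At least 1 M-box was in 3 of the 11 gaps beside 7.30%, TGACGTCA in 1 beside 1.13%, ACAATG in 6 beside 22.5%, ACAAAG in 4 beside 31.4%, and TGAGTCA in 0 beside 8.85%.

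SLC45A2 (ENSG00000164175.15, chr5:33944623-33984693, minus strand, 40.1 kb) encodes a melanosomal transporter that helps to set pH. None of its 5 start sites was within 3 kb of a peak, and its body held 0 peaks. Its only peak, 1640 bases wide at chr5:34007381-34009020, began 22.7 kb upstream at the start of AMACR, the alpha-methylacyl-CoA racemase gene that ends 1.47 kb from SLC45A2. The gene lay in a stretch of 565 kb without peaks that also held ADAMTS12 and RXFP3.

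SLC24A5 (ENSG00000188467.11, chr15:48120990-48142672, plus strand, 21.7 kb) encodes a potassium-dependent sodium/calcium exchanger of the melanosome pathway. Its 4 start sites were all without a peak, and the nearest peak was 56.7 kb from the canonical start and 35.0 kb from the body. That peak, 750 bases wide at chr15:48177671-48178420, was within 3 kb of starts of CTXN2, MYEF2 and SLC12A1. The stretch without peaks around SLC24A5 measured 402 kb.

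GPR143 (ENSG00000101850.13, chrX:9725346-9786297, minus strand, 61.0 kb) encodes a G protein-coupled receptor of the melanosome membrane. Its only peak, 980 bases wide at chrX:9786051-9787030, covered 1 of its 5 annotated start sites, the outermost. The canonical start, whose promoter sequence is shown above, was 20.2 kb away. The same peak was at the start of SHROOM2, a cytoskeletal gene that begins 0.132 kb away on the opposite strand, and the list cannot assign it to either gene. It covered 0.405% of the GPR143 body. Counting canonical transcripts alone, GPR143 had no promoter peak, and the members with one were then 2, DCT and OCA2, beside 59.9% of all genes.

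Across the 47 peaks the median width was 890 bases, beside 1060 bases over all peaks (quartiles 620 and 1760). The 4 peaks at a member's own start had a median of 2485 bases and ranged from 980 to 10050, beside a median of 1270 for the 18856 promoter peaks of all genes. The 31 distal peaks, 66.0% of the 47, had a median of 740 bases beside 770 for all 11928 distal peaks. The remaining 12 lay at starts of other genes. OCA2 supplied 29 of the 31 distal peaks, and thus these summaries mostly describe that gene.

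In the central 400 bases of the peaks, CATGTG was found in 9 of 47 (19.1%), all of them in the OCA2 window, beside 15.8% of all peaks and 21.9% of distal ones. The M-box was in 0 of 47 beside 4.0% of all and 5.63% of distal peaks, and TGACGTCA in 0 beside 0.890% and 0.302%. TGANNTCA was in 10 (21.3%) beside 16.6% of all and 23.2% of distal peaks, and TGAGTCA in 6 (12.8%) beside 5.31% and 6.87%. CACGTG was in 3 (6.38%) beside 6.85% of all and 5.32% of distal peaks. As with CATGTG, all the member peaks with TGANNTCA, TGAGTCA or CACGTG were in the OCA2 window. ACAAAG was in 9 (19.1%) beside 20.5% and 25.4%, and ACAATG in 7 (14.9%) beside 12.1% and 16.6%. The distal share is the closer comparison, since 31 of the 47 peaks were distal. Over whole peaks these comparisons changed in size. The ratios here set the members' peaks against all peaks and not against distal ones. For TGAGTCA the ratio was 2.41 by share of central windows with a match and 1.17 by matches per kb of whole peaks. For CATGTG it was 1.21 and 2.28, although its central share was below that of distal peaks. Each pair of ratios differs in measure as well as in window. Whole peaks of the members held 4 M-boxes, or 0.0586 per kb beside 0.109 per kb in all peaks.

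Other genes of pigmentation were described in the same way for 37 genes. A promoter peak was present at 33 of them (89.2%), and the canonical start was in a peak at 27 (73.0%), beside 63.4% and 53.5% of all protein-coding genes and 3 and 2 of the 7 melanin synthesis genes. Their median was 8 peaks in the window, with a range of 0 to 28. All 6 regulators had a promoter peak, including MITF with 13 peaks in its window and SOX10 with 28. So did PMEL, MLANA and GPNMB, which encode melanosome proteins, all 12 genes of protein sorting and melanosome biogenesis, among them RAB38 and HPS5, and the 3 genes of melanosome movement. Among signals, 4 of 6 had one, all but the receptor gene KIT, with 0 peaks in its window, and ASIP. Among the other melanosome channels and transporters it was 5 of 7, all but the cystine transporter gene SLC7A11 and the channel gene TRPM1. The canonical start itself was in a peak at 4 of the 6 regulators and at 1 of the 3 genes of melanosome proteins. It was in a peak at 10 of the 12 sorting and biogenesis genes and at all 3 movement genes. For signals and for channels and transporters the counts stayed at 4 and 5. OCA2, with 38 peaks, had more than any of these 37 genes, but these counts are not scaled to gene length, and OCA2 spans 344 kb. By the share of the body under peaks, OCA2 (8.22%) was below some of them, such as SOX10 (92.8%), IRF4 (76.3%) and MITF (8.82%). It was above others, such as RAB27A (4.81%).

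**Figure D4:**
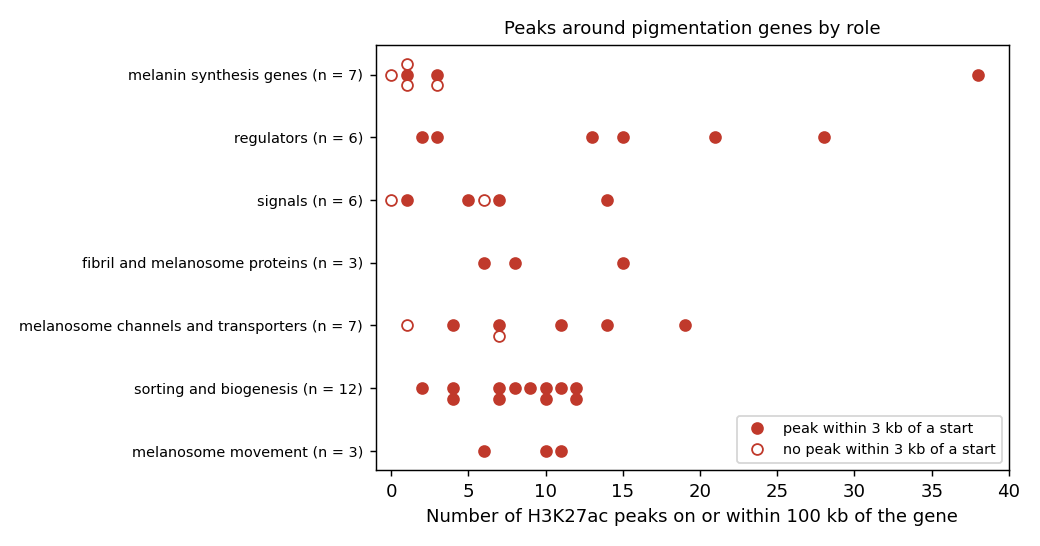
Number of H3K27ac peaks on or within 100 kb of each gene, for the 7 melanin synthesis genes and for 37 other pigmentation genes by role, with filled points for genes with a peak within 3 kb of a start and open points for those without. Of the 7, 4 are open, and OCA2 at 38 has the largest count in the plot, while 4 of the other 37 are open. Counts are not scaled to gene length.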

How the data were processed

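The authors aligned reads of SU-CCS-1 H3K27ac and input libraries to hg38 (BWA 0.7.10-r789), removed duplicates with samtools rmdup, called peaks with MACS2 2.2.6 in broad mode against input, and removed peaks in denylisted regions. The deposited values are the start and end of each of 30784 peaks in 1 merged list with 4 columns, with no score or column per sample. Whether replicates were joined before or after calling is not given in the sources used here. Peak edges are multiples of 10 bases apart, and no peak is narrower than 400 bases. Broad calling joins neighbouring enriched stretches, so width depends on the joining rule and on signal as well as on the mark.

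Groups came from the sample titles. Peaks were compared with GENCODE 44 genes on hg38 (1-based, genes of the shared X and Y regions counted once, on X), in Python 3.11.15 with pandas 2.3.3, numpy 2.4.6 and pysam 0.24.0, with figures in matplotlib 3.10.9. A promoter peak shared a base with the 3 kb on either side of any transcript start, and other peaks were distal. Peaks within 12.5 kb were joined for the order by summed width. The 8 motifs were matched exactly on both strands, in RefSeq promoter windows (6 of 7 members matched, all windows identical to hg38), in the central 400 bases of peaks and in gaps of 1 kb or less. The interval counts were checked on simulated intervals. No significance test was made. Named genes were the members, genes at or under their peaks, their nearest neighbours and the other pigmentation genes. The members and lists were chosen with earlier results of these data known. Alternatives changed the promoter window, transcripts, peak width, flank, overlap rule, joining distance and motif window.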

Additional observations from a re-analysis of the deposited data

How the results depend on the processing

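The 47 peaks assigned to the 7 genes fell to 21 when only the widest 50% of all peaks were counted and to 11 with the widest 25%, by the construction of those limits. They were 44 with flanks of 50 kb and 50 with 200 kb. Promoter peaks were found at 3 genes with windows of 1 and 5 kb, and at 2, DCT and OCA2, with canonical transcripts or the widest 50% or 25% of peaks. The shares of all protein-coding genes were then 59.9%, 49.0% and 26.9%, so that with the widest 25% the 2 of 7 were no longer below the share of all genes. GPR143 then had none, and its body share was 0 with the widest 50% and without the 3 kb at its starts. The latter took the DCT body share from 8.77% to 2.26%. Joined regions on member bodies numbered 10, and 12 and 8 with joining at 5 and 25 kb. The ratio of member to all peaks was also taken as matches per kb of whole peaks, in place of the share of central windows with a match. It went from 1.21 to 2.28 for CATGTG, from 0 to 0.538 for the M-box and from 2.41 to 1.17 for TGAGTCA. Both measure and window changed, and the cause was not tested. In all, 22 of 30 alternatives moved their value by a factor of 1.5 or less. A fall from 3 genes to 2, which is the loss of GPR143, lies exactly on this limit and was counted within it. No paired analysis was possible because the list has no column per replicate, and for the same reason no replicate could be left out. The peak list gives no depth at a locus, so no limit of detection can be set for the genes without a peak.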

Other observations

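Matches to CATGTG within the peaks of the OCA2 window were clustered. The peak chr15:28105201-28109350, between OCA2 and HERC2, held 27 of the 81 matches in all 47 peaks. All 27 were on the plus strand, within 1.11 kb at the end of the peak nearer to OCA2, with a median spacing of 30 bases. None of the 27 was in the central 400 bases. Over whole peaks, CATGTG occurred 1.19 times per kb in the members' peaks and 0.521 times per kb in all peaks, and without that peak the former was 0.842 per kb, a ratio of 1.62. This exclusion was chosen after the data were seen. The start peak of OCA2 held 8 matches, and peaks in OCA2 intron 9 (chr15:28004101-28005430) and intron 23 (chr15:27773971-27777960) held 7 each.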
